A study of Mus musculus with 24 samples.

Results

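The 10 genes described here are Atf4 and a set of genes that mammalian cells switch on when amino acids run short, and they were followed in mouse embryonic fibroblasts (MEF) after serum was taken away and given back. They were taken by name (Atf4, Atf5, Ddit3, Trib3, Asns, Chac1, Sesn2, Psat1, Phgdh and Ddit4) from the 22180 genes that the array's annotation assigns to a probe set of their own. Each of the 10 had exactly 1 such probe set, and all 10 reached an intensity of 20 in all 24 arrays, so all were among the 9908 genes tested. RNA of early passage MEF was hybridised to 24 Affymetrix Mouse Gene 2.0 ST arrays. Of these, 2 held unsynchronised cells grown with 10% foetal calf serum (FCS), and 22 held cells kept in low serum for 48 h and collected at 18 times from 0 h, before the medium was renewed, to 30 h after return to 10% FCS. The low serum was 0.5% FCS in the sample protocol and 0.1% in the series description. The groups at 0, 12, 18 and 24 h and the unsynchronised group had 2 arrays each, labelled as biological replicates, and the other 14 times had 1 array each. Serum was withheld in these cells and no amino acid was removed, as far as the labels state.

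Atf4 encodes a transcription factor of the integrated stress response. In this pathway a kinase such as GCN2 (gene Eif2ak4), which senses uncharged tRNA, or PERK (gene Eif2ak3), which senses misfolded protein in the endoplasmic reticulum, phosphorylates the translation factor eIF2 alpha. General protein synthesis then falls while the Atf4 messenger is translated more, and Atf4 activates genes for amino acid synthesis and uptake, for restraint of mTORC1 and for feedback. Because much of the control of Atf4 lies in translation, which an RNA array does not read, its targets are often used as a readout of the pathway.

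Atf4 binds with C/EBP family partners to composite elements close to the start of many of its targets. The promoters of 5 members are shown because each held a match to one of the letters searched, TGATGNAA or TGNTGCAA, on either strand. Both patterns match the octamer TGATGCAA. The patterns were chosen with these promoters in view. All 10 members had a RefSeq window of 250 bases before to 50 bases after the annotated start (build GRCm38.p6, 12 windows in all), and the members without a match were Atf4, Atf5, Ddit3, Phgdh and Ddit4. Of 32851 mouse promoter windows of the same length, 3.97% held TGATGNAA, 3.22% held TGNTGCAA and 6.2% held either. Sequences run from 5′ to 3′ on the gene's strand, with the matches in capitals. Where a match lies on the opposite strand, the capitals show its reverse complement.
Chac1 promoter, chr2:119350992-119351291, plus strand: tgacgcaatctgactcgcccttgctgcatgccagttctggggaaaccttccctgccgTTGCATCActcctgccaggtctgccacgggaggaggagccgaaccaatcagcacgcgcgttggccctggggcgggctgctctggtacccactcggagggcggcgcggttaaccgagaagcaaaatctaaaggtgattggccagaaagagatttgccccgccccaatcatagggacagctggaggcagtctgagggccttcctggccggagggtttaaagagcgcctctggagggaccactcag
Trib3 promoter, chr2:152344011-152344310, minus strand: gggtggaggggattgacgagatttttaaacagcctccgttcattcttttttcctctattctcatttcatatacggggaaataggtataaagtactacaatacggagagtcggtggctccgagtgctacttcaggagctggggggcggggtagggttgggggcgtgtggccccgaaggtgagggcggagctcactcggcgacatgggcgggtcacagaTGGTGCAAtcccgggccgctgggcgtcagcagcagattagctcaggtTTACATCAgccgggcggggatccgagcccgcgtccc
Sesn2 promoter, chr4:132510407-132510706, minus strand: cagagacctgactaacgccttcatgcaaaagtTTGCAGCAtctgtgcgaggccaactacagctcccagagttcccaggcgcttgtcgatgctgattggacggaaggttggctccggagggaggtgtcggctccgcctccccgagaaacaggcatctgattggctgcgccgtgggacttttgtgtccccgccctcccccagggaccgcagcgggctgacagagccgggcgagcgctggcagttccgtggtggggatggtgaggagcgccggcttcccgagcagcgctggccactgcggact
Asns promoter, chr6:7693160-7693459, minus strand: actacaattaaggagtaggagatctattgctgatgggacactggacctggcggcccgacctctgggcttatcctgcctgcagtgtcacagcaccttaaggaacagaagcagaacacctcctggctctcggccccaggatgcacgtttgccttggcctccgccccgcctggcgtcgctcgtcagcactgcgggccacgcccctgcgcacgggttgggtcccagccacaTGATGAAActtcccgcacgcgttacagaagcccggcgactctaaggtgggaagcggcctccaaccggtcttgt
Psat1 promoter, chr19:15925010-15925309, minus strand: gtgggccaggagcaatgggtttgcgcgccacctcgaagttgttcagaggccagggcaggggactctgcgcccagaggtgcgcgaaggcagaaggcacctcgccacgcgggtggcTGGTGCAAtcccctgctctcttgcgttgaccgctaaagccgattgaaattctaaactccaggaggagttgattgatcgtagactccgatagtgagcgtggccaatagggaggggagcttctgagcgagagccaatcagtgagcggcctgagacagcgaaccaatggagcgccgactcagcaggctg
Trib3 held 2 matches, TGGTGCAA on the gene's strand and TGATGTAA on the opposite strand, and each of the other 4 held 1. In Chac1 the match was TGATGCAA on the opposite strand, in Sesn2 TGCTGCAA on the opposite strand, in Asns TGATGAAA and in Psat1 TGGTGCAA. A match is a description of letters and does not show that a factor bound there.

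The 0 h pair of arrays, to which most comparisons refer, was the least alike of the duplicated groups (Pearson r of log2 intensities 0.970, against 0.986 to 0.991 for the others). Its log2 values had an SD of 0.29, against 0.16 to 0.20 for the other pairs. Fibroblast markers were bright in all arrays, with a summed intensity over 10 genes of 12578 to 13031 in unsynchronised cells, 17484 to 18702 at 0 h and 15146 to 18459 at the other times. Of these 10, 2 were higher and 7 lower than at 0 h in unsynchronised cells, 3 and 3 at 24 h and 2 and 3 at 12 h. Markers of macrophages and leukocytes (10 genes) summed to 1556 and 2163 at 0 h, 928 and 1003 in unsynchronised cells and 1063 and 1319 at 24 h. Of the 8 of them tested, 6 were lower and 0 higher than at 0 h, both in unsynchronised cells and at 24 h, and 1 was lower and 0 higher at 12 h. Of all genes tested, 21% were lower in unsynchronised cells, 12% at 24 h and 11.8% at 12 h. Among the 6, Ptprc reached at most 20.4 in any array, so its call is tied to the minimum of 20 used to keep genes. Tyrobp fell below that minimum, from a geometric mean of 33.2 at 0 h to 14.5 in unsynchronised cells and 18.7 at 24 h. At 4 h the 10 markers summed to 1786, within the range of the 0 h arrays. The part of these markers in the members' changes was not tested, and in bulk RNA fewer cells of a type and less RNA per cell cannot be told apart. Mean intensities of the single leukocyte markers ran from 8.45 for Cd52, 8.82 for Laptm5 and 13.3 for Ptprc to 211 for Fcer1g, 229 for Cd68 and 792 for Lyz2. Markers of endothelial, epithelial and fat cells (5, 5 and 4 genes on the array) summed to at most 104, 63.4 and 413 in any array.

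For 5 of the 10 members, both arrays of starved cells at 0 h were brighter than every array from 2 h after refeeding. Atf4, Ddit3, Trib3, Chac1 and Sesn2 were each below both 0 h arrays in all 18 arrays from 2 to 30 h. For Atf4 the margin was narrow, with 380.3 at 30 h against 385 in the dimmer 0 h array. Atf5 was below both in 13 of 18 arrays and Asns in 11. Psat1 ran the other way and lay above both 0 h arrays in 16 of 18. Phgdh lay above both in 14 and Ddit4 in 10 of 18. The share of all genes tested that lay apart from the 0 h arrays in this way was not counted, so these counts are descriptions. In a moderated F test over the 17 times after 0 h (limma), 8 of 10 members varied, against 43.7% of all genes tested, and Asns and Atf5 did not pass (adjusted p = 0.292 and 0.153). Of the 8, the calls of Atf4 and Psat1 (adjusted p = 0.0476 and 0.0331) were each lost when any of 8 single arrays, those of the unsynchronised, 12, 18 or 24 h groups, was left out (adjusted p 0.0716 to 0.0874 for Atf4 and 0.0518 to 0.0739 for Psat1). The call of Phgdh (adjusted p = 0.0408) was lost without either 12 h array, without either 18 h array or without the first 24 h array (0.0527 to 0.0965), which left 5 members called in each of these cases.

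**Figure D1:**
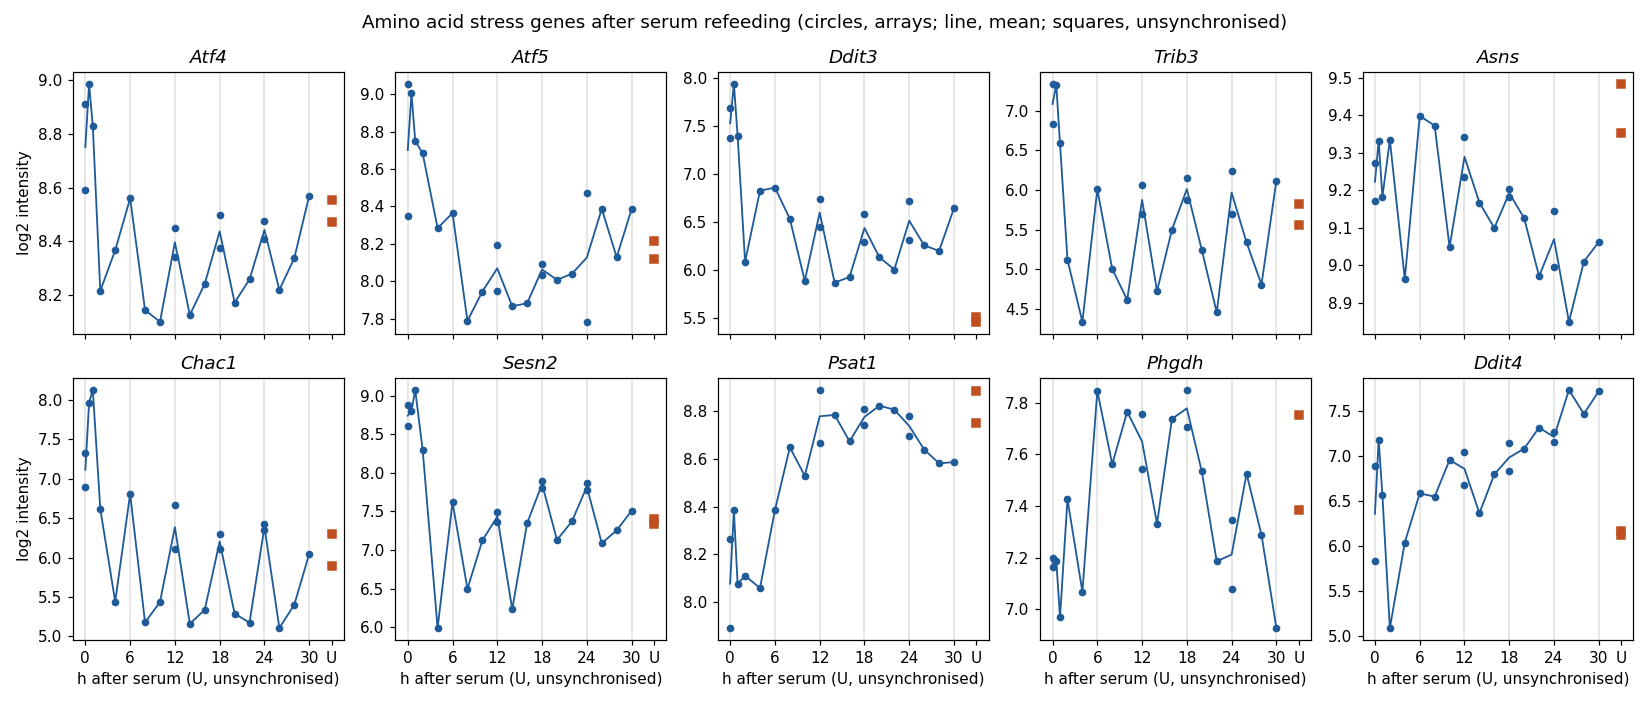
Log2 intensity of the 10 genes against hours after serum return, with 1 circle per array, a line through the mean of each time and squares for the 2 unsynchronised arrays (U). Grey lines mark multiples of 6 h, where Trib3, Chac1 and Sesn2 stood above the times on both sides at 6, 12, 18 and 24 h, and each panel has its own vertical scale.

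Atf4 itself, the transcription factor at the head of the set, moved little. Its intensity was 355 and 376 in the unsynchronised arrays and 385 and 482 at 0 h. After serum it was 508 at 0.5 h, 455 at 1 h, 297 at 2 h, 330.2 at 4 h, 378 at 6 h, 283 at 8 h, 274 at 10 h, 349.7 and 325 at 12 h, 279 at 14 h, 303 at 16 h, 362 and 332 at 18 h, 288 at 20 h, 306 at 22 h, 339.8 and 356 at 24 h, 298 at 26 h, 323 at 28 h and 380.3 at 30 h. The 0.5 h array was the brightest of all 24 and the 10 h array the dimmest, a range of 1.85-fold. Against 0 h, Atf4 differed by -0.24 on the log2 scale in unsynchronised cells (SE 0.14, limma adjusted p = 0.202), by -0.35 at 12 h (adjusted p = 0.0829), by -0.31 at 18 h (adjusted p = 0.121) and by -0.31 at 24 h (adjusted p = 0.138). None of these passed with both 0 h arrays, and all 4 passed without the first 0 h array, the dimmer one (-0.40, -0.52, -0.48 and -0.47, adjusted p 0.0250 to 0.0499). The single 8 h array was lower than 0 h by the test (log2 change -0.61, SE 0.17, adjusted p = 0.0250), a call lost without the second 0 h array (adjusted p = 0.0597).

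Atf5, a related bZIP factor that is also controlled in translation, had intensities of 278 and 297 in unsynchronised cells and 326 and 532 at 0 h. From 2 to 30 h it ran from 220.2 to 411, with a median of 268. Its 0 h arrays differed by 0.71 and its 24 h arrays (220.2 and 355) by 0.69 on the log2 scale, wider than for any other member but Ddit4 at 0 h. The log2 change from 0 h was -0.54 in unsynchronised cells, -0.63 at 12 h, -0.64 at 18 h and -0.57 at 24 h (SE 0.25, limma adjusted p 0.0789 to 0.118). Without the first 0 h array it passed in all 4 (adjusted p 0.0141 to 0.0217). The 8 h array was lower by 0.91 on the log2 scale (log2 change -0.91, adjusted p = 0.0471), and 7 of 10 arrays left out singly took this call away (adjusted p 0.0644 to 0.150), namely the second 0 h array and either array of the unsynchronised, 12 h or 18 h group.

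Ddit3 encodes CHOP, a transcription factor of prolonged stress that acts downstream of Atf4. It had the widest gap between unsynchronised and starved cells of the 10, with intensities of 44.0 and 45.6 in the unsynchronised arrays and 166 and 206 at 0 h. Along the course it was 246 at 0.5 h, 169 at 1 h, 68.0 at 2 h, 114 at 4 h, 116 at 6 h, 92.7 at 8 h, 59.2 at 10 h, 107 and 87.7 at 12 h, 58.4 at 14 h, 60.9 at 16 h, 96.1 and 78.3 at 18 h, 70.2 at 20 h, 64.2 at 22 h, 79.5 and 105 at 24 h, 76.5 at 26 h, 73.5 at 28 h and 100.2 at 30 h. The 2 unsynchronised arrays were the dimmest of the 24, and no array from 2 h on reached the 0 h level. In unsynchronised cells Ddit3 fell by 2.04 on the log2 scale (log2 change -2.04, SE 0.19, limma adjusted p = 2.1e-05). It was also lower than at 0 h at 12 h (-0.93, adjusted p = 0.0038), 18 h (-1.09, adjusted p = 0.0014) and 24 h (-1.01, adjusted p = 0.0025), each with an SE of 0.19. Cells 24 h after refeeding still held more Ddit3 than unsynchronised cells (log2 difference 1.03, adjusted p = 0.0136), although this call was lost without either unsynchronised array or without the second 24 h array (adjusted p 0.0763 to 0.0940).

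Trib3 encodes a pseudokinase that binds Atf4 and CHOP and restrains their activity, a feedback arm of the pathway. Its intensity was 47.2 and 56.5 in unsynchronised cells and 114 and 162 at 0 h. From 0.5 h on it was 160.5 at 0.5 h, 96.2 at 1 h, 34.8 at 2 h, 20.2 at 4 h, 64.4 at 6 h, 32.1 at 8 h, 24.5 at 10 h, 66.7 and 51.7 at 12 h, 26.5 at 14 h, 45.3 at 16 h, 71.1 and 58.5 at 18 h, 37.9 at 20 h, 22.0 at 22 h, 51.9 and 75.5 at 24 h, 40.5 at 26 h, 28.0 at 28 h and 69.6 at 30 h. It fell below its unsynchronised level by 2 h, reached its lowest value at 4 h and from 6 h alternated between 22.0 and 75.5 with the sampling time. At 4 h its log2 change from 0 h was -2.75 (SE 0.28, limma adjusted p = 7.4e-05) and at 8 h -2.08 (adjusted p = 0.00051). At 12, 18 and 24 h it was -1.21, -1.08 and -1.12 (SE 0.23, adjusted p = 0.00296, 0.00542 and 0.00488), and in unsynchronised cells -1.40 (adjusted p = 0.00081). The 18 h call was lost without the second 18 h array (adjusted p = 0.0515) and the 24 h call without the first 24 h array (adjusted p = 0.0513).

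Sesn2 and Ddit4 both encode restraints of mTORC1, the kinase complex that drives growth when nutrients are plentiful. Sesn2 protein senses leucine, and Ddit4 (REDD1) acts through the TSC complex. Sesn2 intensity was 162 and 169 in the unsynchronised arrays and 471 and 389 at 0 h. Along the course its arrays read 447 at 0.5 h, 539 at 1 h, 314 at 2 h, 63.6 at 4 h, 197 at 6 h, 90.4 at 8 h, 139.5 at 10 h, 181 and 165 at 12 h, 75.2 at 14 h, 163 at 16 h, 239 and 224 at 18 h, 140.2 at 20 h, 166 at 22 h, 219 and 233 at 24 h, 136 at 26 h, 153 at 28 h and 182 at 30 h. It was brightest at 1 h and dimmest at 4 h, an 8.48-fold range, the widest among the members. Its log2 change from 0 h was -2.75 at 4 h (SE 0.17, limma adjusted p = 3.6e-06), -2.24 at 8 h (adjusted p = 1.6e-05), -1.31 at 12 h (SE 0.14, adjusted p = 9.1e-05), -0.89 at 18 h (adjusted p = 0.00084) and -0.92 at 24 h (adjusted p = 0.00080). In unsynchronised cells it was -1.37 (adjusted p = 3.8e-05). None of these calls was lost when any single array was left out.

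Ddit4 took a different course. Its intensity was 71.5 and 69.3 in unsynchronised cells and 56.8 and 118 at 0 h, a pair 1.06 apart on the log2 scale. From 0.5 h on its arrays read 144 at 0.5 h, 94.3 at 1 h, 34.0 at 2 h, 65.6 at 4 h, 95.8 at 6 h, 93.4 at 8 h, 124 at 10 h, 131 and 102 at 12 h, 82.2 at 14 h, 111 at 16 h, 141 and 113 at 18 h, 135 at 20 h, 159 at 22 h, 142 and 154 at 24 h, 212 at 26 h, 176 at 28 h and 210.3 at 30 h. It was lowest at 2 h and then climbed, and the arrays at 26, 28 and 30 h were the brightest of the 24. It was higher at 24 h than at 0 h (log2 change 0.85, SE 0.28, limma adjusted p = 0.0448), but this call was lost when any 1 of 9 duplicated arrays was left out (adjusted p 0.0581 to 0.261), and held only without the second 0 h array. Without the first 0 h array the change was 0.32. The values were 0.63 at 18 h (adjusted p = 0.115) and -0.22 in unsynchronised cells (adjusted p = 0.556), the latter 0.31 without the second 0 h array. Against unsynchronised cells, the 24 h arrays were higher by 1.07 on the log2 scale (adjusted p = 0.0591).

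Chac1, an enzyme that breaks down glutathione and a known Atf4 target, was brightest in the first hour and then fell. Its intensity was 59.4 and 78.4 in unsynchronised cells and 119 and 161 at 0 h. Refed cells gave 250.4 at 0.5 h, 279.9 at 1 h, 98.2 at 2 h, 43.4 at 4 h, 112 at 6 h, 36.1 at 8 h, 43.3 at 10 h, 102 and 68.7 at 12 h, 35.7 at 14 h, 40.4 at 16 h, 69.0 and 78.7 at 18 h, 39.1 at 20 h, 36.1 at 22 h, 86.1 and 81.4 at 24 h, 34.4 at 26 h, 42.2 at 28 h and 66.1 at 30 h. The 0.5 and 1 h arrays were the brightest, and the troughs at 8, 14, 22 and 26 h lay between 34.4 and 36.1. The difference of 1.01 between the single 1 h array and 0 h on the log2 scale (SE 0.27) did not pass over all genes (limma adjusted p = 0.119) but passed without the second 0 h array (1.23, adjusted p = 0.0348). Chac1 was lower than at 0 h in unsynchronised cells (-1.02, SE 0.22, adjusted p = 0.00363), at 4 h (-1.68, adjusted p = 0.00097), at 8 h (-1.94, adjusted p = 0.00055), at 12 h (-0.73, adjusted p = 0.0273), at 18 h (-0.91, adjusted p = 0.00954) and at 24 h (-0.73, adjusted p = 0.0309). The 12 h call was lost without the second array of 0 or 12 h (adjusted p = 0.122 and 0.233), the 18 h call without the first 18 h array (adjusted p = 0.0707) and the 24 h call without the second 0 h array or either 24 h array (adjusted p 0.0973 to 0.13).

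The 3 enzymes of amino acid synthesis did not share the fall. Psat1, the aminotransferase of serine synthesis, had intensities of 429.7 and 473 in unsynchronised cells and 238 and 307 at 0 h. After serum it was 334 at 0.5 h, 269.9 at 1 h, 276 at 2 h, 267 at 4 h, 334 at 6 h, 401 at 8 h, 369 at 10 h, 406 and 474 at 12 h, 440.5 at 14 h, 408 at 16 h, 448 and 428 at 18 h, 452 at 20 h, 447 at 22 h, 439 and 414 at 24 h, 398 at 26 h, 383 at 28 h and 384 at 30 h. The refed arrays up to 6 h lay between 267 and 334 and those from 8 h on between 369 and 474. The arrays from 8 h on did not overlap those at 0 h, whereas those at 1, 2 and 4 h lay between the 0 h arrays. The log2 change was 0.74 in unsynchronised cells (SE 0.15, limma adjusted p = 0.00332), 0.70 at 12 h (adjusted p = 0.00664), 0.70 at 18 h (adjusted p = 0.0065) and 0.66 at 24 h (adjusted p = 0.00993). The 12 h call was lost without the second 12 h array (adjusted p = 0.0682), and the 24 h call without the first 0 h or the first 24 h array (adjusted p = 0.0513 and 0.0643). The rise at the single 8 h array (0.57, adjusted p = 0.0448) was lost when any 1 of 9 duplicated arrays was left out (adjusted p 0.0545 to 0.133), all but the second 0 h array.

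Phgdh, the first enzyme of serine synthesis, had intensities of 167 and 215 in unsynchronised cells and 143 and 147 at 0 h. From 2 to 30 h it ran from 122 to 231, highest in the second 18 h array and lowest at 30 h. It was higher than at 0 h at 18 h (log2 change 0.60, SE 0.16, limma adjusted p = 0.0184), a call lost without the first 0 h array or either 18 h array (adjusted p 0.0526 to 0.119). The values were 0.39 in unsynchronised cells (adjusted p = 0.0786), 0.47 at 12 h (adjusted p = 0.0507) and 0.03 at 24 h (adjusted p = 0.908). Asns, asparagine synthetase, had intensities of 654 and 716 in unsynchronised cells and 576 and 619 at 0 h. From 2 to 30 h it ran from 461 to 675, with a median of 562, the narrowest range of the 10 (1.55-fold over all arrays). Its log2 change from 0 h was 0.20 in unsynchronised cells, 0.07 at 12 h, -0.03 at 18 h and -0.15 at 24 h (SE 0.13, adjusted p 0.244 to 0.881).

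Counted together, 1 of 10 members was higher and 4 were lower in unsynchronised than in starved cells, where 21.7% and 21.0% of all genes tested were called. At 12 h the counts were 1 higher and 4 lower (all genes 18.9% and 11.8%), at 18 h 2 and 4 (15.7% and 14.7%) and at 24 h 2 and 4 (14.5% and 12.0%). The 4 that fell were Ddit3, Trib3, Chac1 and Sesn2 in all 4 comparisons, which share the 0 h arrays. Of these calls, those of Chac1 at 12 and 24 h were lost when all probe sets were tested separately (adjusted p = 0.0609 and 0.0682) and when only the groups compared were fitted (0.0811 and 0.0535), and so was that of Ddit4 at 24 h (0.0950 and 0.127). That of Psat1 at 24 h was lost when only the groups compared were fitted (0.0650). The median log2 change of the 10 was -0.39 in unsynchronised cells, -0.49 at 12 h, -0.48 at 18 h and -0.44 at 24 h, beside 0.01, 0.08, 0.00 and 0.02 for all genes. Leaving out 1 array changed these counts, to 8 called in unsynchronised cells without the first 0 h array, to 3 at 12 h without the second 12 h array and to 2 at 24 h without the first 24 h array. At 4 h 0 members were higher and 4 lower (12.0% and 22.0% of all genes), and at 8 h 1 was higher and 6 lower (16.1% and 13.0%). At 1 h 0 of 10 were called by limma (1.88% of all genes, 1 member at an unadjusted p under 0.05), and 1 was without the second 0 h array. Between 24 and 12 h 0 of 10 were called (3.58% of all genes, 2 at an unadjusted p under 0.05). Of the 10, 1 was higher and 0 lower at 24 h than in unsynchronised cells (3.01% and 1.56%, 4 at an unadjusted p under 0.05), with 0 called without either unsynchronised array or the second 24 h array and 3 without either 0 h array. The 1, 4 and 8 h arrays were single and were assumed to vary like the duplicated groups.

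**Figure D2:**
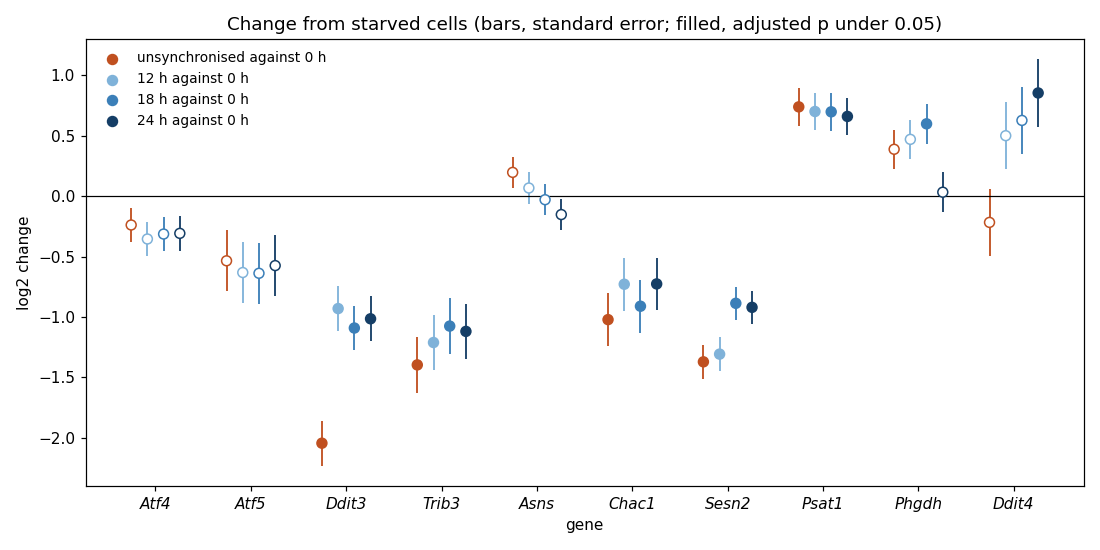
Log2 change from 0 h of the 10 genes in unsynchronised cells and at 12, 18 and 24 h (2 arrays in each group), with the standard error of the fit as bars and filled circles for an adjusted p under 0.05. Ddit3, Trib3, Chac1 and Sesn2 were lower in all 4 comparisons, from -0.73 to -2.04, and Psat1 was higher, from 0.66 to 0.74.

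Several members alternated along the course in step with the sampling times, a pattern noticed after the values were seen and given here as a description. At 6, 12, 18 and 24 h, Atf4, Ddit3, Trib3, Asns, Chac1 and Sesn2 each lay above the times 2 h before and 2 h after, at all 4 times, which is 6 of 10 members against 3.71% of all genes tested (368 of 9908). When the arrays were centred on the median of the genes tested, 3 members did so (Trib3, Chac1 and Sesn2) against 1.91% of genes, and after a further quantile normalization 5 did, all of the 6 but Ddit3, against 2.49%. No member lay below both neighbours at all 4 times, as 0.686% of genes did. The same count at 8, 14, 20 and 26 h gave 0 members above and 1 below, Sesn2 (0.606% and 2.98% of genes), and at 10, 16, 22 and 28 h 0 above and 0 below (0.999% and 0.807%). Counted with each array of 12, 18 and 24 h left out in turn, 6 or 7 members had the pattern, and 7, with Atf5, without the first 24 h array.

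For Chac1, the excess over the mean of the neighbouring times was 1.50, 1.09, 0.89 and 1.25 on the log2 scale at 6, 12, 18 and 24 h. For Trib3 it was 1.34, 1.21, 0.64 and 1.07, and for Sesn2 1.38, 0.75, 0.61 and 0.59. Ranked by the smallest of the 4 excesses, these were genes 1, 2 and 3 of 9908, ahead of P2ry6, a nucleotide receptor gene, with 0.52. The 95th percentile of all genes was 0.58, 0.41, 0.28 and 0.52 at the 4 times, and the median 0.02, 0.08, 0.00 and 0.10. Atf4 (smallest excess 0.20), Ddit3 (0.18) and Asns (0.08) ranked 144, 207 and 750. All 6 arrays at 12, 18 and 24 h were above both neighbouring times for each of these 6 members. The members were picked by the means of these arrays, and both duplicates were compared with the same single neighbouring arrays. It is therefore no separate support for the pattern, and the share of all genes was not counted. Of the 4 members outside the pattern, Psat1 had excesses of 0.01 to 0.12 and Phgdh, Atf5 and Ddit4 had a negative value at 24 h (-0.14, -0.09 and -0.31). The array at 30 h was above that at 28 h for Trib3 (log2 difference 1.31), Chac1 (0.65), Ddit3 (0.45), Sesn2 (0.25), Atf4 (0.23) and Asns (0.05). Among the members outside the pattern, it was likewise above for Atf5 (0.26), Ddit4 (0.25) and Psat1 (0.005), and below for Phgdh (-0.36). Both times are single arrays, and the share of all genes above was not counted. The median log2 change of all genes from 0 h was 0.06 at 30 h and 0.01 at 28 h.

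**Figure D3:**
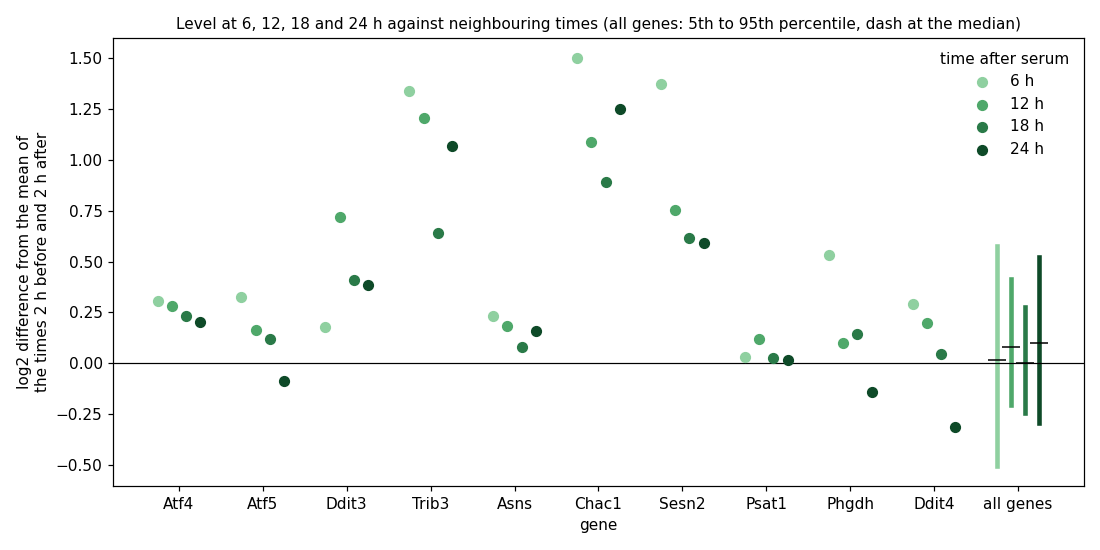
Log2 level of each gene at 6, 12, 18 and 24 h minus the mean of the times 2 h before and 2 h after, 1 point per time, beside the 5th to 95th percentile of all 9908 genes with a dash at their median. Chac1, Trib3 and Sesn2 lay between 0.59 and 1.50 at all 4 times, above the 95th percentile at each.

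The times at which these genes were high include all of those with 2 arrays (12, 18 and 24 h), and the 0 h group is also a multiple of 6 h, whereas 1, 4 and 8 h are not. The labels give no difference in handling between these arrays, and what set them apart was not tested. The arrays in between can be compared with 0 h too, as was done after the data were seen. These times were picked because several members were low there, so lower values in them were partly set by the choice. The 14, 16, 20 and 22 h arrays together gave a log2 change of -2.11 for Trib3 (SE 0.20, limma adjusted p = 2.7e-05), -1.88 for Chac1 (adjusted p = 3.8e-05), -1.72 for Sesn2 (adjusted p = 4.5e-06) and -1.55 for Ddit3 (adjusted p = 4.7e-05). In this comparison Atf4 was lower by 0.55 (log2 change -0.55, SE 0.12, adjusted p = 0.00516) and Atf5 by 0.75 (log2 change -0.75, SE 0.22, adjusted p = 0.0192). Neither passed at 12, 18 or 24 h. The changes there were smaller (-0.35, -0.31 and -0.31 for Atf4, -0.63, -0.64 and -0.57 for Atf5) and the SE was larger (0.14 and 0.25). Psat1 was higher by 0.69 (adjusted p = 0.00224). In all 1 member was higher and 6 were lower, against 19.9% and 19.4% of all genes.

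Genes of related lists that share the alternation were counted the same way, beside 3.71% of all genes tested. They were Ppp1r15a and Ppp1r15b, phosphatase subunits that reverse eIF2 alpha phosphorylation (2 of 8 genes listed around eIF2 alpha), and Cebpg and Jdp2 among 7 partners of Atf4. Gpt2, Pck2, Herpud1 and Adm2 did so among 14 other amino acid stress genes. Psph and Mthfd2 did so among 8 enzymes of serine and one-carbon metabolism, Slc3a2, Slc7a1 and Slc1a4 among 11 amino acid transporters, Yars among 17 tRNA synthetases, and Nprl3 and Depdc5 among 17 genes of amino acid sensing upstream of mTORC1. None of 17 genes of endoplasmic reticulum chaperones and the unfolded protein response did, a list that did not include Herpud1. None of the 10 fibroblast and 8 leukocyte markers tested did. In lists of this size a count of 0 is near the share of all genes.

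The regulators around Atf4 were also compared with 0 h, by lists chosen by function, and the log2 changes below are given for unsynchronised cells first and 24 h second. Of all genes tested, 21.7% were higher and 21.0% lower in unsynchronised cells, and 14.5% and 12.0% at 24 h, and no list was tested against that share. Among 8 genes around eIF2 alpha, 1 was higher and 2 lower in unsynchronised cells, and 1 higher and 3 lower at 24 h. These 8 were its kinases and phosphatase subunits, Gcn1, and Eif2s1, for which a probe set named Eif2a was taken. Whether that name stands for the same gene was not checked. Eif2ak4, the kinase for uncharged tRNA, was the one that rose (log2 change 0.43 and 0.47, limma adjusted p = 0.0170 and 0.0165). Eif2ak3, the kinase of the endoplasmic reticulum, fell (-0.76 and -0.45, adjusted p = 0.0021 and 0.0456). So did Eif2ak2, the kinase for double-stranded RNA (-0.91 and -0.74, adjusted p = 0.0043 and 0.0201). Ppp1r15a was lower at 24 h only (-0.03 and -0.77, adjusted p = 0.925 and 0.0239). Calls of genes in these lists were not recomputed with single arrays left out. Among 7 partners of Atf4, 1 was higher and 5 lower in unsynchronised cells and 1 higher and 3 lower at 24 h. Cebpb rose (1.02 and 1.44), and Atf3, a stress-induced bZIP factor, fell (-0.59 and -1.70), as did Nupr1 (-1.34 and -0.52). Cebpa was also lower (-0.45 and -1.11), with geometric mean intensities of 17.2 in unsynchronised cells, 10.8 at 24 h and 23.4 at 0 h. Only the 0 h value exceeds the minimum of 20 used to keep genes, so the lower calls of Cebpa are partly tied to that minimum.

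Of 14 other amino acid stress genes, 1 was higher and 5 lower in unsynchronised cells, and 0 higher and 2 lower at 24 h. Fgf21, a secreted hormone of fasting, had geometric mean intensities of 5.87 in unsynchronised cells, 9.15 at 24 h and 20.4 at 0 h, near the minimum of 20, and Vldlr, a lipoprotein receptor, fell (-1.30 and -1.26 on the log2 scale). Of 8 enzymes of serine, glycine and one-carbon metabolism, 4 were higher and 2 lower in unsynchronised cells, and 3 and 1 at 24 h. Mthfd1 (1.28 and 1.03) and Mthfd1l (1.18 and 0.93), folate enzymes, rose, and Aldh1l2 (-0.92 and -0.88), a mitochondrial folate enzyme, fell. Of 17 tRNA synthetases, 9 were higher and 1 lower in unsynchronised cells, and 3 and 1 at 24 h, with Vars (0.84 and 0.69) and Hars (0.69 and 0.41) higher in both.

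Of 11 amino acid transporters, 1 was higher and 4 lower in both comparisons. Slc7a5, the large neutral amino acid transporter, fell (-0.50 and -0.89), as did the cationic transporter Slc7a3 (-0.67 and -1.06), while Slc7a6 rose (1.11 and 0.82). Of 17 genes of amino acid sensing upstream of mTORC1, 0 were higher and 6 lower in unsynchronised cells, and 2 higher and 2 lower at 24 h. Sesn1, a relative of Sesn2, fell in both (-1.06 and -0.76), and Sesn3 fell in unsynchronised cells (-1.68) with -0.33 at 24 h (adjusted p = 0.134). Of 17 endoplasmic reticulum genes, 3 were higher and 2 lower in unsynchronised cells, 8 and 0 at 12 h, and 1 and 0 at 24 h, where the one higher was Creld2 (0.53). The list medians in unsynchronised cells ran from -0.53 for the partners of Atf4 to 0.56 for the serine and one-carbon enzymes, beside -0.39 for the 10 members.

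**Figure D4:**
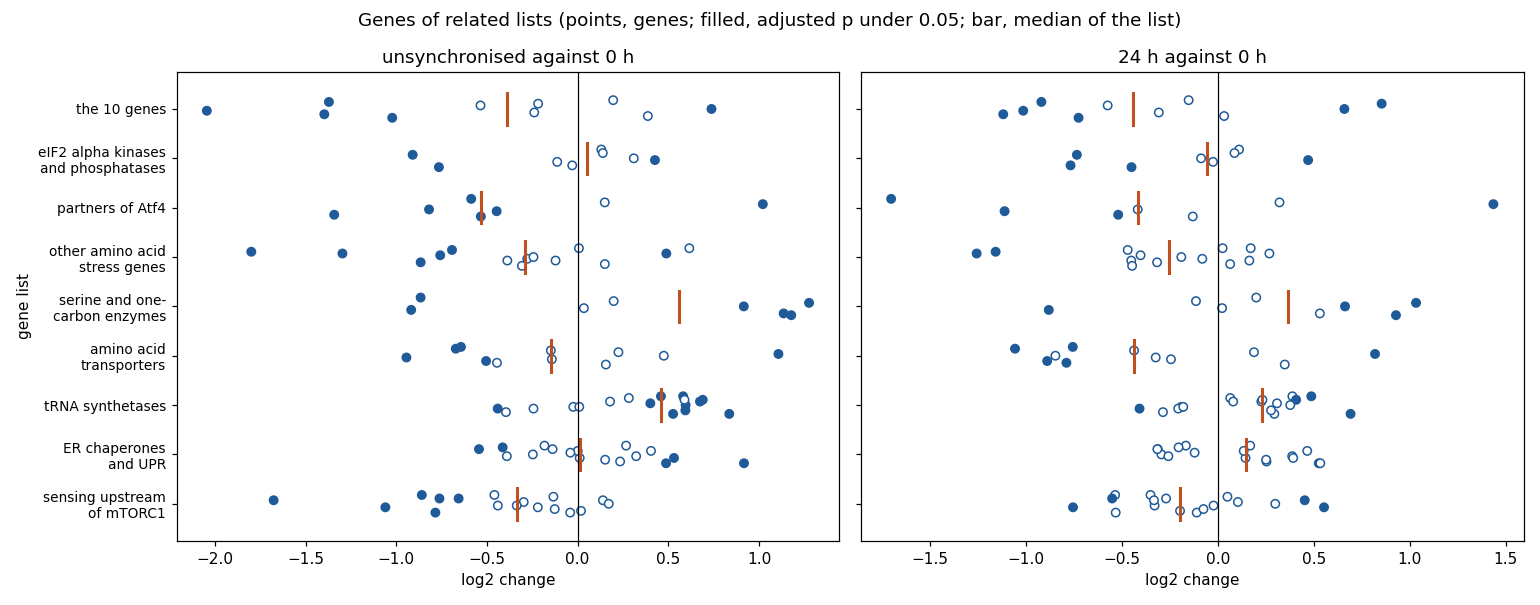
Log2 change from 0 h of each tested gene in the 10 members and 8 related lists, in unsynchronised cells and at 24 h, with filled circles for an adjusted p under 0.05 and a bar at each list's median. Medians of the members lay at -0.39 and -0.44, those of the serine and one-carbon enzymes at 0.56 and 0.37 and those of the tRNA synthetases at 0.46 and 0.23.

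Over the 19 group means, the genes whose log2 course was most like that of Atf4 were Chac1 (Pearson r = 0.886), Trib3 (0.871), Unk (0.867), Dctn4 (0.866) and Kbtbd7 (0.864), of 9908 genes tested. The genes most like Psat1 were Cdkn2aipnl (0.964), Bcl7a (0.952), Dut (0.950), Hspa14 (0.946) and Nudt5 (0.943). Among the members themselves r was highest between Atf4 and Chac1 (0.886) and lowest between Atf5 and Psat1 (-0.721), and between Atf4 and Ddit4 it was 0.059. These group means share arrays and 14 of the 19 rest on 1 array, so the correlations are given as descriptions.

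When the 19 group means of a member were put in order, few neighbours differed by more than the spread between duplicates. The gap to the next group exceeded the pooled SD in 9 of 18 steps for Sesn2, in 3 for Chac1 and for Ddit3, in 2 for Atf4 and for Trib3, in 1 for Asns, Psat1 and Ddit4 and in 0 for Atf5 and Phgdh. The highest group was 0.5 h for Atf4, Atf5, Ddit3 and Trib3, 1 h for Chac1 and Sesn2, 6 h for Phgdh, 20 h for Psat1, 26 h for Ddit4 and unsynchronised cells for Asns. The lowest was 4 h for Trib3, Sesn2 and Psat1, 26 h for Chac1 and Asns, 2 h for Ddit4, 8 h for Atf5, 10 h for Atf4, 30 h for Phgdh and unsynchronised cells for Ddit3.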

How the data were processed

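RNA of 24 MEF cultures, 2 of unsynchronised cells and 22 of a serum refeeding course, was hybridised to Affymetrix Mouse Gene 2.0 ST arrays. Per the study's methods, the authors checked the arrays with ArrayQualityMetrics and normalized them by RMA in the oligo package (versions not given in the sources used here). Both deposited tables hold identical intensities, on a linear scale (1.74 to 6335) although a header names log2. Log2 of the deposited intensity was used. The annotation gave a single gene to 23521 of 41345 probe sets, more than 1 to 1820, which were not used, and no name to 16004. Probe sets reaching 20 in at least 2 arrays were kept (14182), and the brightest per gene gave 9908 genes. A fit by limma 3.58.1 in R 4.3.3 with 1 mean per group over all 24 arrays (19 groups, 5 residual and 5.58 prior degrees of freedom) gave two-sided p-values, adjusted by Benjamini-Hochberg over all genes tested at 0.05. The fit was tested on simulated data. With so few duplicates, the number of arrays limits the precision.

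The 10 members and all lists were chosen with earlier results of these data known. All members were named, and of each other list up to 4 genes past the threshold in unsynchronised cells or at 24 h with the largest change, from which the text takes some. P2ry6 and the listed genes that alternate were named after their values were seen. For Atf4 and Psat1 the 5 most alike genes were taken. Alternatives were the low-intensity filter, probe sets kept separate, scaling, variance moderation, a 2-fold minimum, the groups fitted, a replicate block and leaving out each duplicated array. The comparison of the 14, 16, 20 and 22 h arrays with 0 h, the counts against neighbouring times and their scaling alternatives were chosen after seeing the data. Among list genes not analysed here for lack of a probe set of their own were Gdf15, Gadd45a and Pycr1. Same-numbered arrays were not paired by any label, and over 10 pairs of groups their deviations from the group means correlated from -0.35 to 0.24, with 3 over 0.1.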

Additional observations from a re-analysis of the deposited data

How the results depend on the processing

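Of the 34 log2 changes of members called, recomputed under 635 alternatives, 551 kept their direction and call, 84 kept the direction without passing and 0 reversed. Of the uncalled changes given in the report, 3 reversed, that of Phgdh at 24 h (-0.0036 after a further quantile normalization, and -0.10 to 0.17 when single arrays were left out, negative without the second 24 h array), that of Ddit4 in unsynchronised cells (-0.75 to 0.31, positive without the second 0 h array) and that of Asns at 18 h (-0.081 to 0.021, positive without the same array). Other uncalled changes, not given, also crossed 0. The causes were not tested. The count of members in the F test (8) was 4 with all probe sets tested separately, where more tests enter the adjustment. With a 2-fold minimum the counts against 0 h were 2 at 12 h, 2 at 18 h, 2 at 24 h and 3 at 8 h. The count at 24 h against unsynchronised cells (1) was 2 with arrays centred on their median, 2 with a variance trend and 2 with only those groups fitted, and the count at 24 h against 0 h was 3 with only those groups fitted. Centring on the median of the genes tested took the members above both neighbouring times from 6 to 3. Leaving out single arrays gave 5 to 8 in unsynchronised cells, 3 to 7 at 12 h, 4 to 7 at 18 h, 2 to 6 at 24 h, 0 to 1 at 1 h, 3 to 6 at 4 h and 5 to 6 at 8 h against 0 h, 0 at 24 h against 12 h, 0 to 3 at 24 h against unsynchronised cells, 5 to 9 in the F test and 6 to 7 above neighbouring times. Where 1 array of a pair was left, it was assumed to vary like the other groups.

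Same-numbered arrays share only a number. With the replicate number as a block, counts were 6 in unsynchronised cells, 6 at 12 h, 6 at 18 h, 5 at 24 h, 0 at 1 h, 3 at 4 h and 6 at 8 h against 0 h, 0 at 24 h against 12 h, 1 at 24 h against unsynchronised cells and 7 in the F test, all within 1.5 times those without it.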
